A study of Mus musculus with 51 samples.

Results

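The genes described here encode proteins of the myelin sheath and of oligodendrocytes, the glial cells that make myelin in the central nervous system. They are Mbp, Mobp, Mal, Cldn11, Mog, Mag, Cnp and Trf, a working set matched by symbol in the array's annotation. The genes were chosen with earlier results of these data known. The 8 genes were read by 12 probe sets of the 22626 tested, and where 1 value per gene is used below it is that of the probe set with the highest mean over all arrays, which gives 8 genes of 11807. The signals came from the pyramidal cell layers of CA1 and CA3 and the granule cell layer of the dentate gyrus (DG), cut out of frozen mouse brain sections by laser. Each of the 17 mice, labelled female and 4.5 months old, gave 3 arrays, 1 per subfield, so there were 51 arrays in all.

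The mice fell into 3 genotypes. The 6 rTg4510 mice carried both the responder transgene for human tau with the P301L mutation and the activator transgene tTA. The 5 tTA mice carried the activator alone, and the 6 DN (double negative) littermates carried neither. rTg4510 and tTA mice therefore differ by the tau transgene, and tTA and DN mice by the activator. The activator is driven by the CaMKIIα promoter, which is active in excitatory neurons of the forebrain, and the 2 transgenic lines that were crossed had different strain backgrounds. What was captured is a cell layer and not a cell type: the layers consist mostly of neurons, and any oligodendrocyte, astrocyte, microglial cell or vessel lying in the cut area, or myelin next to it, adds its RNA.

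Oligodendrocytes wrap their membrane around axons in many turns. Where the turns are pressed together, the cytoplasmic faces are held by Mbp and lined by Mobp, and Mal is a small membrane protein of lipid-rich domains. Cldn11 forms the tight junctions between the turns, Mog sits on the outermost surface, Mag on the innermost surface facing the axon, and Cnp, an enzyme that hydrolyses cyclic nucleotides, in the cytoplasmic channels that are not compacted. Trf, transferrin, is the iron carrier, which in brain is made mainly by oligodendrocytes. The mRNAs of Mbp and Mobp are carried into the oligodendrocyte's processes and translated near the sheath. A signal in a neuronal layer therefore need not come from an oligodendrocyte cell body.

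The 250 bases before the annotated starts of the 8 genes were read for short motifs. The RefSeq promoters searched (GRCm38.p6) included 8 for 6 of the 8 genes, 3 of them for Mag, and none for Mbp or Trf. The chromosome that carries Mbp was left out of the search. The absence of Mbp is therefore not a gap in RefSeq, and the 32851 promoters used for comparison are not the full mouse set. The letters ACAAAG, the core bound by SOX factors such as Sox10, with the reverse complement CTTTGT, stood in 4 of these 8 promoters, in those of Mobp, Cnp and in 2 overlapping ones of Mag, against 16.5% of all 32851 mouse promoters in the table. The promoter of Mobp held 6 copies, and it was the only 1 of the 32851 with 6 or more (0.00304%). The motif was chosen after the sequences had been seen, and the cutoff of 6 is the count in Mobp itself. Whether the motif bears on the signals was not tested. CTGGCAC, known as a MYRF motif, was in 3 of the 8 promoters and 4.19% of all. The 3 were that of Cnp and the same overlapping pair of Mag, which share the site. CAGCTG, an E-box, was in 0 of the 8 and 13% of all. Matches were sought on both strands, they describe letters and not bound sites, and no binding was measured here. The 3 promoters shown are those that hold the SOX motif, with 1 of the overlapping Mag pair, each read on the gene's strand with the motif in capitals.
Mobp, chr9:120149492-120149741, plus strand: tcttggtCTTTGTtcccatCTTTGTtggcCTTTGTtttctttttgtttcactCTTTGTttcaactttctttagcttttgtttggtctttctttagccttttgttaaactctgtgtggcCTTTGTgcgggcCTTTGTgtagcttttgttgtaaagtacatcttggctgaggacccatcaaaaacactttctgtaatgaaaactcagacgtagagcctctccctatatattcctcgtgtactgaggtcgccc
Cnp, chr11:100574689-100574938, plus strand: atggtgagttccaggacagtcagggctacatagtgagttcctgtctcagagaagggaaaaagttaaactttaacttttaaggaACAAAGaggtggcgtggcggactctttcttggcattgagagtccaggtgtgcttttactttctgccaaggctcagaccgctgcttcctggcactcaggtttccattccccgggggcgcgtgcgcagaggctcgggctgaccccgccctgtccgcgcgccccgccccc
Mag, chr7:30914923-30915172, minus strand: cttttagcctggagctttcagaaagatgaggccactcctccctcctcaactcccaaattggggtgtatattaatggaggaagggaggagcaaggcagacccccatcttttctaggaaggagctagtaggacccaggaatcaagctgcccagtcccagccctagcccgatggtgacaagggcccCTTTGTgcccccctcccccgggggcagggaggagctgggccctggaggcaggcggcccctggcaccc

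Before the results, the arrays were set against their labels. Prnp, whose probe set reads high in rTg4510 arrays, was on the side opposite to the label in 5 arrays: all 3 of DN mouse 4 (10.44 in CA1, 9.65 in CA3 and 9.98 in DG), the DG array of DN mouse 5 (9.93) and the DG array of rTg4510 mouse 3 (7.34). Xist, expected from a female, read low in 3 arrays. They were those of DN mouse 5 in CA1 (2.49) and CA3 (4.06) and the DG array of rTg4510 mouse 3 (2.50). For both genes the DG array of DN mouse 5 read high (Xist 9.91) and its CA1 and CA3 arrays low. In rTg4510 mouse 3 the DG array read low for both and the CA1 and CA3 arrays high (Prnp 10.11 and 9.69, Xist 7.85 and 8.96). The DG values, mouse means and layer differences of these mice carry this mismatch, and its cause was not tested. The labels were kept. Each result was also computed without the 5 arrays, and without all 9 arrays of DN mice 4 and 5 and rTg4510 mouse 3. For the mouse means both settings left out these 3 mice. The median log2 signal of an array lay between 2.91 and 3.12. Gapdh read higher at the 3′ than at the 5′ end by 1.62 to 3.62, a gap that grows as RNA shortens, with the highest value in the DG array of rTg4510 mouse 5. Its part in the results was not tested.

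Signals of the 8 genes were spread widely. The brighter Mbp probe set averaged 7.35 on the log2 scale over the 51 arrays, and ranged between 3.17 and 9.87. The mean was 6.41 for Cldn11, 5.95 for Mobp, 5.88 for Mal, 4.56 for Cnp and 4.45 for Trf. Mag was dimmer at 3.77, above its array's median in 39 of 51 arrays, and Mog at 2.40 was above it in 11 of 51, so that most Mog values lie among the dimmer probe sets. The second probe set averaged 6.96 for Mbp, 5.07 for Mal and 4.54 for Cnp, and that of Mobp averaged 2.77 and was above the array's median in 15 of 51. Probe sets differ in how strongly they bind, so levels are not compared between them.

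**Figure D1:**
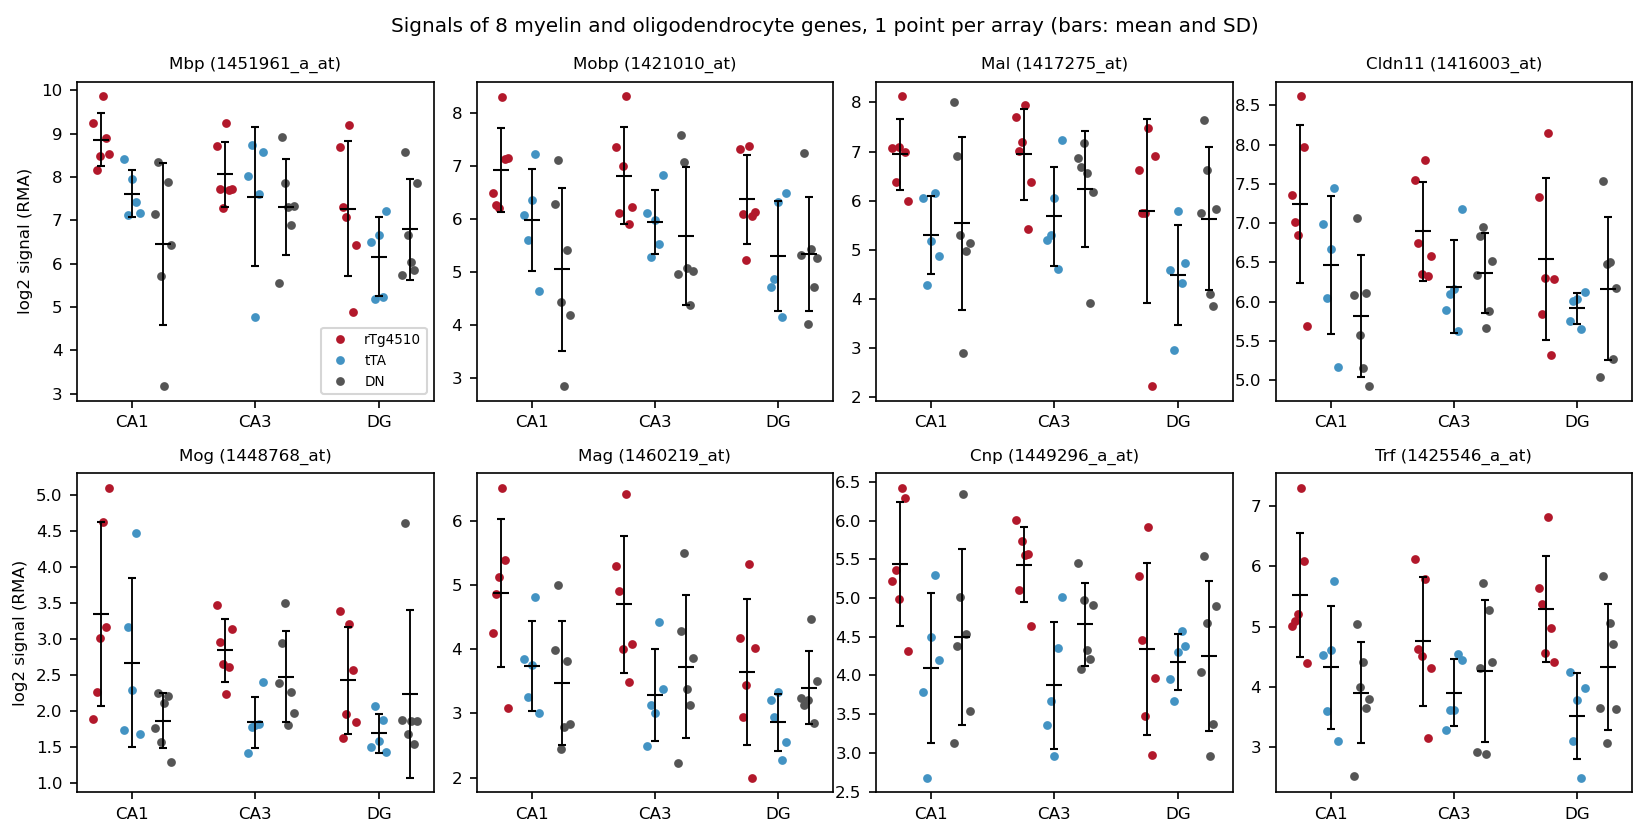
Log2 signal of the brightest probe set of each of the 8 genes, with 1 point per array, in CA1, CA3 and DG and, within each, rTg4510, tTA and DN mice from left to right, bars giving mean and SD. The spread within a genotype is wide, as for Mbp in CA1, where DN arrays run between 3.17 and 8.35 while rTg4510 arrays lie between 8.16 and 9.87.

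All 8 genes averaged higher in rTg4510 than in tTA mice in each of the 3 subfields, and none of the differences passed the test. The median difference over the 8 genes was 1.16 in CA1, 0.938 in CA3, 0.924 in DG and 0.993 for each mouse's mean over its 3 arrays, on the log2 scale, against medians of -0.0193, -0.0343, -0.0009 and -0.0189 over all genes. All 12 probe sets were on the higher side in each subfield, where 46.9% of all probe sets were in CA1, 44.7% in CA3, 49% in DG and 44.3% in the mean of the subfields. By limma, with p-values adjusted over the whole table (Benjamini-Hochberg) and a threshold of 0.05, 0 of the 12 were called in any of these comparisons, against 0% of all probe sets in CA1, 0.00442% (1 probe set) in CA3, 0% in DG and 0% in the mean of subfields. The lowest adjusted p of a member was 0.999 in CA1, 0.691 in CA3, 0.673 in DG and 0.854 in the mean of subfields. At an unadjusted p under 0.05, 3 of 12 were higher in CA1 (2.08% of all probe sets), 6 in CA3 (2.65%), 3 in DG (2.54%) and 10 in the mean of subfields (2.58%). In tissue of this kind more oligodendrocyte material in the cut area and more RNA per cell cannot be told apart.

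Among the proteins of compact myelin, Mbp (1451961_a_at) in CA1 had a lowest, median and highest log2 signal of 8.16, 8.71 and 9.87 in rTg4510 mice. The 5 tTA mice gave 8.41, 7.13, 7.95, 7.43 and 7.17. The DN mice had 3.17, 6.79 and 8.35. The rTg4510 values in CA1 overlap those of tTA mice only through tTA mouse 1, and those of DN mice only through DN mouse 2. The rTg4510 minus tTA difference was 1.24 ± 0.68 (SE) in CA1, 0.52 ± 0.66 in CA3 and 1.11 ± 0.71 in DG (limma, adjusted p = 0.999, 0.933 and 0.898). In CA3 the value rests on the low tTA mouse 3 at 4.78, the other four lying between 7.61 and 8.74; without it the difference was -0.175. For the other Mbp probe set (1419646_a_at) the differences were 0.81 ± 0.48, 1.12 ± 0.56 and 1.67 ± 0.47 in CA1, CA3 and DG, that of DG 3.19-fold (adjusted p = 0.673).

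Mobp averaged 6.71 ± 0.72 over the subfields in rTg4510 mice, 5.75 ± 0.37 in tTA mice and 5.36 ± 1.03 in DN mice (SD, n = 6, 5 and 6). Its rTg4510 minus tTA difference was nearly the same in the 3 layers, 0.95 ± 0.65 in CA1, 0.88 ± 0.57 in CA3 and 1.06 ± 0.56 in DG. Mal (1417275_at) had the largest difference of the 8 genes in CA1, 1.63 ± 0.68, which is 3.10-fold. There the rTg4510 mice had 6.00, 7.03 and 8.13 as lowest, median and highest, and the tTA mice 6.05, 4.29, 5.18, 6.16 and 4.88. The groups meet at about 6, where the lowest rTg4510 mouse and the highest tTA mice lie. In DG the Mal difference of 1.30 ± 0.85 had the largest error of the set, and rTg4510 mouse 5 read 2.22 there while the other rTg4510 mice were at 5.74 or more. The other Mal probe set (1432558_a_at) had 1.11 ± 0.58 in CA1, 1.74 ± 0.58 in CA3 and 0.47 ± 0.59 in DG.

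Cldn11, the tight junction protein, had the tightest tTA mouse means of the 12 probe sets (SD 0.09, n = 5). Its mouse means were 6.19, 6.54 and 8.19 in rTg4510 mice as lowest, median and highest, and 6.21, 6.05, 6.29, 6.24 and 6.16 in tTA mice. The tTA values span a narrow band that only the lowest rTg4510 mouse enters. The difference of the means was 0.70 ± 0.32, with an adjusted p of 0.911 by limma.

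Of the surface proteins, Mag averaged 4.87 ± 1.15 in rTg4510, 3.73 ± 0.70 in tTA and 3.48 ± 0.96 in DN mice in CA1. The difference between rTg4510 and tTA was 1.13 ± 0.55 in CA1, 1.41 ± 0.56 in CA3 and 0.79 ± 0.45 in DG, and 1.11 ± 0.34 over the mouse means (adjusted p = 0.865). Mog in CA3 had 2.24, 2.81 and 3.47 as lowest, median and highest in rTg4510 mice, and 1.42, 1.79, 1.80, 1.82 and 2.40 in tTA mice. The highest tTA mouse, mouse 5, lay above the lowest rTg4510 mouse, and all 5 tTA values were below the lowest array median of any array. The difference was 1.0 ± 0.29 with an adjusted p of 0.787.

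Cnp (1449296_a_at) in CA3 had the lowest unadjusted p among the 12 probe sets, 0.000399, in the rTg4510 against tTA comparisons. The rTg4510 mice had 4.64, 5.56 and 6.00 as lowest, median and highest and the tTA mice 3.36, 3.67, 2.97, 4.35 and 5.02, while the DN mice had 4.09, 4.62 and 5.45. tTA mouse 5 was the one that reached the rTg4510 range, and the DN range overlaps both. The difference was 1.56 ± 0.35, 2.95-fold, with an adjusted p of 0.691, and leaving out tTA mouse 5 gave the lowest adjusted p of any setting, 0.18. In DG the same probe set differed by 0.17 ± 0.51. That small DG value turned to -0.0192 without rTg4510 mouse 1 and to -0.146 without rTg4510 mouse 4. The other Cnp probe set (1418980_a_at) had a larger difference in DG. There the rTg4510 mice ran from 3.45 to 5.91 and the tTA mice from 3.33 to 5.28. For 1449296_a_at the limma test of whether the CA3 and DG differences were unequal gave 1.39 ± 0.57 with an adjusted p of 0.742.

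Trf, the iron carrier, was the one member whose rTg4510 and tTA groups did not overlap, in DG and in the mouse means. In DG the rTg4510 mice read 4.42, 5.17 and 6.82 as lowest, median and highest, against 4.24, 3.10, 3.79, 2.50 and 3.98 in the 5 tTA mice and 3.08, 4.18 and 5.84 in the DN mice. Over the mouse means rTg4510 mice had 4.38, 4.90 and 6.63 and tTA mice 4.02, 3.44, 4.0, 4.27 and 3.85. The lowest rTg4510 mouse lay just above the highest tTA mouse in both, and the DN mice lay across both ranges. Separation of this kind, with every rTg4510 value higher, held for 0.164% of all probe sets in DG and 0.208% in the mouse means. Trf differed by 1.77 ± 0.51 in DG, 3.42-fold, with an adjusted p of 0.673 by limma, and by 1.27 ± 0.37 in the mouse means with 0.854. Without rTg4510 mouse 3 and the other 2 mice that go against a label, the DG difference was 1.92 ± 0.55 with an adjusted p of 0.583.

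**Figure D2:**
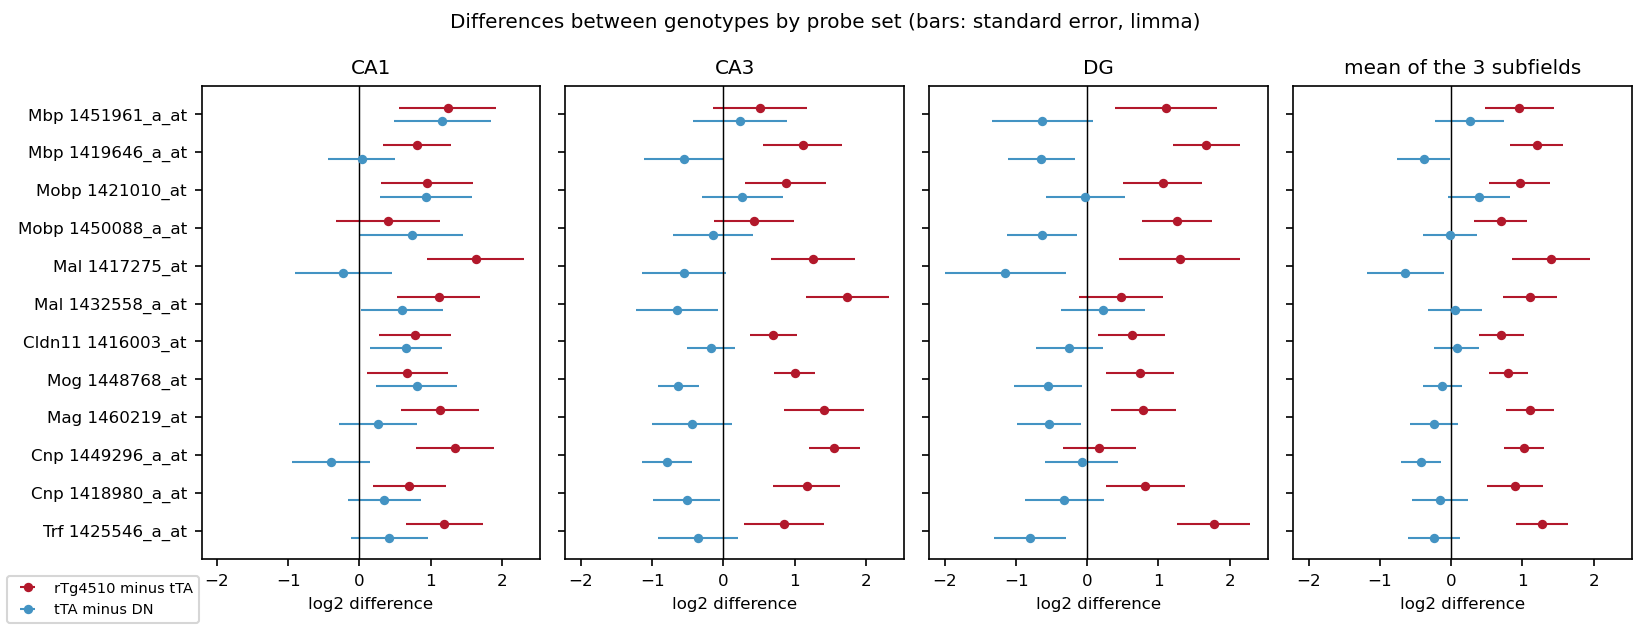
Differences in mean log2 signal, rTg4510 minus tTA and tTA minus DN, for the 12 probe sets in CA1, CA3, DG and the mean of the subfields, with bars of ± 1 SE from limma. The rTg4510 minus tTA points lie right of 0 for all 12 probe sets in every subfield, and the tTA minus DN points lie on both sides, 10 of 12 above 0 in CA1 and 1 of 12 in DG.

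Without the 3 mice whose arrays go against a label, the median rTg4510 minus tTA difference over the 8 genes was 1.17 in CA1, 0.967 in CA3, 0.989 in DG and 1.08 in the mouse means, all 8 genes stayed on the higher side, and 0 of 12 probe sets were called. Leaving out rTg4510 mouse 4, the mouse with the highest values, gave 0.82 in CA1, 0.852 in CA3, 0.651 in DG and 0.74 in the mouse means. Another 5 probe sets are named for Mbp or Cnp only in the study's own tables and were kept out of the counts. In the mouse means they differed between rTg4510 and tTA mice by 0.74 ± 0.25 (1433532_a_at), 0.58 ± 0.28 (1436201_x_at), 0.64 ± 0.29 (1456228_x_at) and -0.06 ± 0.18 (1425264_s_at) for Mbp and by 0.63 ± 0.36 (1437341_x_at) for Cnp. A probe set that the annotation gives to Mbp and to a second gene (1454651_x_at) was likewise not counted and differed by 0.51 ± 0.26.

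Between tTA and DN mice the members went in no common direction. Averages were higher in tTA mice for 6 of 8 genes in CA1, 2 of 8 in CA3, 0 of 8 in DG and 3 of 8 in the mouse means, with median differences of 0.534, -0.396, -0.543 and -0.182. Of all probe sets, 50.3%, 54.2%, 52.8% and 54.2% were higher in these comparisons. By limma 0 of 12 were called, with 0% of all probe sets called in each of these comparisons. At an unadjusted p under 0.05, 2 of 12 were lower in CA3 (3% of all probe sets), Mog by -0.63 ± 0.29 and Cnp (1449296_a_at) by -0.79 ± 0.35, both with an adjusted p of 0.809, and 0 of 12 in the other comparisons. The difference between the layers was itself not called: the change between CA1 and DG in the tTA minus DN difference had a median of 0.941 over the 8 genes, and 0 of 12 probe sets were called (0% of all), with adjusted p of 0.998 or more.

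Set against DN mice, which are also the controls of the tTA against DN comparison, rTg4510 mice averaged higher in all 8 genes in every layer. The medians were 1.45 in CA1, 0.731 in CA3, 0.312 in DG and 0.825 in the mouse means. By limma 0 of 12 probe sets were called, against 0.00442% of all in CA1 and 0% in CA3, DG and the mouse means. All 12 probe sets were higher in each, where 46.3% of all probe sets were in CA1, 47.6% in CA3, 52.6% in DG and 48.1% in the mouse means. At an unadjusted p under 0.05, 9 of 12 were higher in CA1 (2.74% of all), 1 in CA3 (1.98%), 1 in DG (2.12%) and 9 in the mouse means (2.74%). Without the 3 mice that go against a label, these counts were 7 in CA1, 0 in CA3, 1 in DG and 3 in the mouse means, and the medians were 1.54, 0.486, 0.188 and 0.765, with 6 of 8 genes higher in DG and 8 of 8 in the others. Mbp (1451961_a_at) in CA1 had the largest of these differences, 2.41 ± 0.65, with an adjusted p of 0.724, and 2.02 ± 0.48 without those 3 mice. The difference of the rTg4510 minus DN values between CA1 and DG had a median of 1.10 over the 8 genes and was called for 0 of 12 probe sets (0% of all).

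The 3 arrays of a mouse tended to be high or low together. Each value was set against the median of its subfield's 17 arrays for counts, and against their mean for deviations. rTg4510 mouse 4 was above the median in 23 of 24 gene and subfield values, with a mean deviation of 1.84. rTg4510 mouse 1 was above it in 23 of 24, with 1.04. rTg4510 mice 2 and 3 were above in 19 of 24 each, mouse 5 in 13 and mouse 6 in 11. The tTA mice were above in 3, 3, 7, 11 and 10 of 24, and the DN mice in 7, 19, 12, 4, 2 and 6. By the mean deviation over the 8 genes, rTg4510 mouse 4 ranked 1 of 17 in each layer, and rTg4510 mouse 1 ranked 5 in CA1, 2 in CA3 and 3 in DG. Controls also reached high ranks: tTA mouse 4 was 3 in CA1, DN mouse 3 was 3 in CA3 and DN mouse 2 was 2 in DG, and DN mouse 2 had the highest control mean over the layers, 0.81. rTg4510 mouse 5 was uneven: 8 of 8 genes were above the median in CA1, 2 of 8 in CA3 and 3 of 8 in DG.

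Averaged over the 8 genes and 3 arrays, the rTg4510 mice ran from 5.13 to 6.94 with a median of 5.41, the tTA mice from 4.34 to 4.91 with a median of 4.73, and the DN mice from 4.30 to 5.91 with a median of 4.62. All 6 rTg4510 mice lay above every tTA mouse, and 2 of 6 lay above every DN mouse. The 8 genes were chosen with earlier results of these data known. How often other sets of 8 genes separate in this way was not computed.

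**Figure D3:**
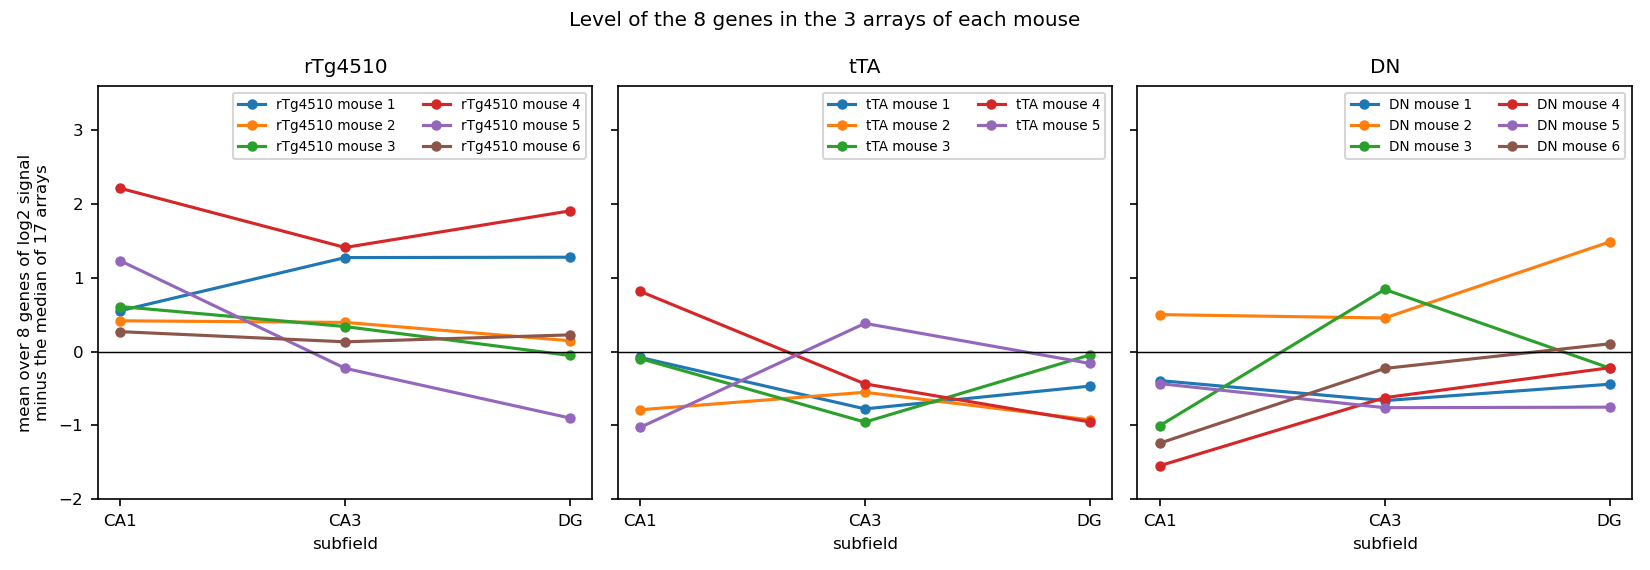
Mean over the 8 genes of the log2 signal minus the mean of the 17 arrays of the subfield (the axis label says median). There is 1 line per mouse across CA1, CA3 and DG, with panels for rTg4510, tTA and DN mice. rTg4510 mouse 4 runs highest with a mean of 1.84 over the layers, and the lines of tTA mice stay at or below 0.82.

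Within genotypes, the share of the variance that lay between mice (intraclass correlation) had a median of 0.237 over the 12 probe sets and 0.042 over all 22626. It was 0.39 for Mal (1417275_at), at percentile 97.5 of all probe sets, 0.386 for Cnp (1418980_a_at) and 0.332 for Mbp (1419646_a_at), and it was near the overall median for Mog at 0.038 and Cnp (1449296_a_at) at 0.029. A limma F test of the mouse within genotype called 0 of 12 probe sets, against 0.0265% of all, and 6 of 12 had an unadjusted p under 0.05 (9.7% of all). The largest F was 3.15 for Mal, with an adjusted p of 0.278. The 3 arrays of a mouse share the animal and their normalization.

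Once the 9 means of genotype and subfield were removed, the 28 pairs of the 8 genes had Pearson correlations between 0.166 and 0.726 over the 51 arrays, with a median of 0.509. Cldn11 followed the mean of the other 7 most closely (r = 0.863), then Mobp (0.751) and Mag (0.691), and Mog (0.445) and Cnp (0.427) least. The points share mice and normalization and are not independent. The 10 other genes most like the mean of the 8 were Plekhb1 (r = 0.811), Scd1 (0.809), Ptgds (0.736), Cryab (0.732), Apod (0.722), Ndrg1 (0.705), Igf2 (0.695), Slc12a2 (0.68), Fa2h (0.669) and Fgfr2 (0.658). Of these Plekhb1, Cryab, Apod, Ndrg1 and Fa2h were in the lists of oligodendrocyte or myelin genes. Scd1 makes monounsaturated fatty acids, Fa2h hydroxylates the fatty acids of myelin galactolipids, and Ptgds makes prostaglandin D and is abundant in oligodendrocytes and in the meninges. By list, the median correlation with the 8 was 0.543 for other oligodendrocyte markers, 0.366 for myelin structure genes, 0.363 for myelin lipid enzymes, 0.17 for oligodendrocyte receptors and signalling genes, 0.163 for precursor genes, 0.152 for oligodendrocyte transcription factors, 0.149 for iron genes, 0.429 for astrocyte, 0.277 for vessel, 0.183 for microglial, 0.033 for choroid plexus and -0.035 for neuronal genes, and -0.024 over all genes.

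Other genes of the oligodendrocyte were mostly on the same side as the 8 in the rTg4510 minus tTA mouse means, and 0 were called. Of 10 measured genes of myelin structure and junctions 8 were higher, with a median of 0.247: Tspan2, a tetraspanin, differed by 1.01 ± 0.44, Pllp by 0.76 ± 0.30, Plekhb1 by 0.59 ± 0.35 and Omg, a glycoprotein of myelin and of neurons, by 0.08 ± 0.24. Of 8 genes of myelin lipid synthesis 6 were higher, median 0.426: Ugt8a, which makes galactosylceramide, differed by 1.29 ± 0.49, Fa2h by 0.35 ± 0.40, the desaturase Degs1 by 0.18 ± 0.13 and the ceramide synthase Cers2 by -0.09 ± 0.24. Among 5 transcription factors all were higher with a median of 0.109. Olig1 by 0.42 ± 0.27 and Tcf7l2 by 1.14 ± 0.64 were the largest, and Olig2, Sox10 and Nkx6-2 lay at or below that median. Of 9 receptors and signalling genes 8 were higher, median 0.40, with Lpar1, a receptor for lysophosphatidic acid, at 1.27 ± 0.34 (adjusted p = 0.822) and S1pr5, a sphingosine phosphate receptor, at 0.60 ± 0.40. All 10 of the other oligodendrocyte markers were higher, median 0.379, Car2 (carbonic anhydrase) by 0.81 ± 0.27. These medians are smaller than the 0.993 of the 8 genes. Of the 6 rTg4510 mice, 5 had a list mean above every tTA mouse for the other oligodendrocyte markers. It was 4 for the transcription factors, 4 for receptors and signalling, 3 for myelin structure and junctions and 2 for myelin lipid synthesis. For the 8 genes it was all 6. The genes of these lists are not the same brightness as the 8 and no test was made between the lists. Members and lists were chosen with earlier results known, and the part of that choice in the contrast was not tested.

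Iron genes other than Trf were on no common side. Of 9 measured, 4 were higher in rTg4510 than in tTA mice, median -0.054, with the ferritin heavy chain Fth1 at 0.06 ± 0.07 and the transferrin receptor Tfrc at -0.17 ± 0.18. Of the 4 measured precursor genes 2 were higher, median 0.114.

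Markers of other cell types moved with the 8 genes in part. In the rTg4510 minus tTA mouse means 16 of 16 astrocyte genes were higher (median 0.271), 14 of 15 vessel genes (0.312), 13 of 17 microglial genes (0.214), 10 of 11 neuronal genes (0.049) and 5 of 9 choroid plexus genes (0.045), with 0 called in any list. Mean signals of the astrocyte list per mouse ran from 6.09 to 7.23 in rTg4510, 6.05 to 6.29 in tTA and 5.56 to 6.61 in DN mice, and those of the vessel list from 4.0 to 4.97 in rTg4510, 3.75 to 4.13 in tTA and 3.75 to 4.24 in DN mice. Those of the microglial list ran from 2.73 to 3.76 in rTg4510, 2.78 to 3.24 in tTA and 2.57 to 2.95 in DN mice. The neuronal list, with 8.86 to 9.34 in rTg4510, 8.90 to 9.32 in tTA and 9.04 to 9.26 in DN mice, overlapped between the genotypes. The choroid plexus list was dim, with 1.89 to 2.23 in rTg4510, 1.96 to 2.06 in tTA and 1.89 to 2.21 in DN mice, its defining genes Ttr and Kl averaging 2.29 and 2.13. rTg4510 mouse 4 was highest of the 17 mice for the 8 genes and for the astrocyte, vessel, microglial and choroid plexus lists, and lowest for the neuronal list. Of the 6 rTg4510 mice, 4 were above every tTA mouse for astrocyte genes, 4 for vessel genes and 3 for microglial genes, against all 6 for the 8 genes. The part of these cells in the result was not tested, and neither was that of choosing the 8 genes with earlier results known.

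**Figure D4:**
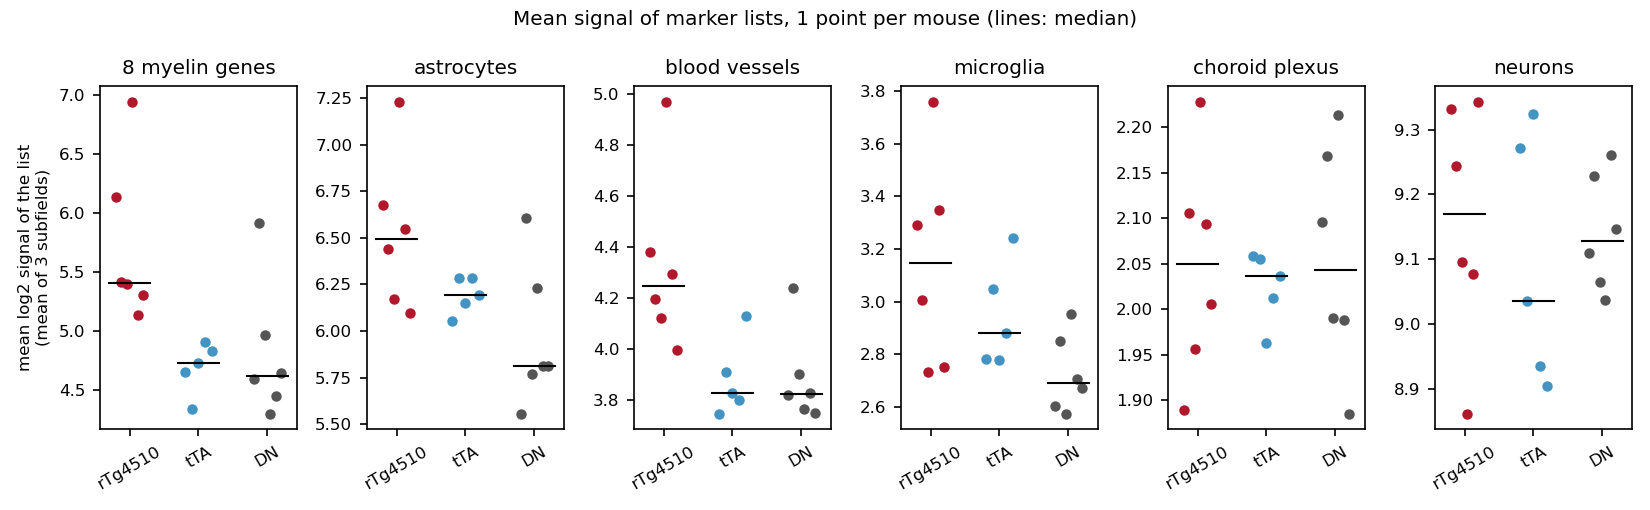
Mean log2 signal of each list per mouse, averaged over the 3 subfields, for the 8 genes and for astrocyte, vessel, microglial, choroid plexus and neuronal genes, with rTg4510, tTA and DN mice from left to right and a line at the median. The 6 rTg4510 mice lie above all 5 tTA mice for the 8 genes (5.13 to 6.94 against 4.34 to 4.91) and overlap them for the other lists shown.

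Between the layers, with the 3 arrays of a mouse compared within the mouse, most of the 8 genes averaged higher in CA1 and CA3 than in DG, and few of these differences passed the test. The median difference was 0.462 for CA1 minus DG, with 8 of 8 genes higher, 0.454 for CA3 minus DG, with 7 of 8 (all but Trf, which averaged 4.33 in CA3 and 4.43 in DG), and 0.00953 for CA1 minus CA3, with 5 of 8. Over all genes the medians were 0.0196, 0.0478 and -0.0271. Of all probe sets, 54.1% were higher for CA1 minus DG, 59% for CA3 minus DG and 43.3% for CA1 minus CA3. At an unadjusted p under 0.05, 3 of 12 were higher for CA1 minus DG (11.5% of all) and 3 for CA3 minus DG (14.6%). By limma 0 of 12 probe sets were called for CA1 minus CA3 (4.68% of all), 0 for CA1 minus DG (10.9%) and 1 for CA3 minus DG (13.9%), a smaller share of the members than of all probe sets in each pair.

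The one that passed was Mal (1417275_at), higher in CA3 than in DG by 0.97 ± 0.32 with an adjusted p of 0.0385, in 15 of 17 mice. Its means over the 17 arrays of a layer were 5.97 in CA1, 6.32 in CA3 and 5.35 in DG, and the arrays of CA3 ran between 3.92 and 7.95 and those of DG between 2.22 and 7.63, so that the layers overlap widely between mice. The other Mal probe set differed by 0.22 ± 0.32 with an adjusted p of 0.717. The call was lost on leaving out any 1 of 8 of the 17 mice (adjusted p between 0.024 and 0.0824 over all 17), on leaving out the 3 mice that go against a label (0.90, adjusted p = 0.0941), and with the arrays not paired by mouse (0.97 ± 0.45, adjusted p = 0.162).

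Mbp (1451961_a_at) averaged 7.64 in CA1, 7.65 in CA3 and 6.77 in DG. It was higher in CA1 than in DG by 0.87 ± 0.36 in 12 of 17 mice (adjusted p = 0.135) and in CA3 than in DG by 0.87 ± 0.36 in 14 of 17 mice (adjusted p = 0.112). Mag was higher in CA1 than in DG by 0.72 ± 0.28 in 13 of 17 mice (adjusted p = 0.109). Neither passed the test on all 17 mice. Mbp passed for CA3 minus DG without tTA mouse 3 (limma, adjusted p = 0.0455). Mag passed for CA1 minus DG without DN mouse 3 (limma, adjusted p = 0.0467). Without DN mouse 4, whose 3 arrays go against the label, both did for CA1 minus DG (adjusted p = 0.022 for Mbp and 0.0389 for Mag). Without the 5 arrays whose Prnp goes against the label only Mbp did (adjusted p = 0.0492, and 0.0754 for Mag), and without all 3 mice that go against a label neither did (0.0853 for Mbp and 0.123 for Mag).

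**Figure D5:**
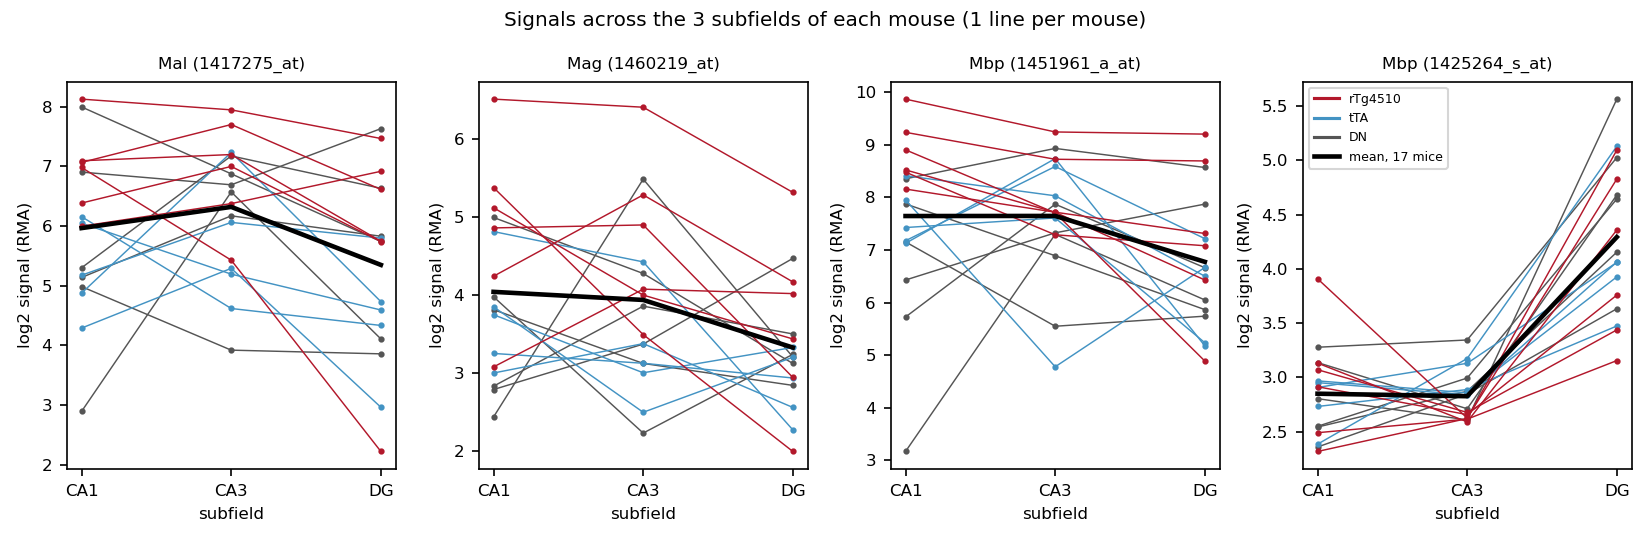
Log2 signal in CA1, CA3 and DG with 1 line per mouse and a thick line for the mean of 17 mice, for Mal (1417275_at), Mag (1460219_at), Mbp (1451961_a_at) and Mbp (1425264_s_at). The first 3 have lower means in DG, and the last is higher in DG in 17 of 17 mice (4.29 against 2.85 in CA1 and 2.83 in CA3).

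A further probe set that the study's tables name for Mbp, 1425264_s_at, went the other way. It averaged 2.85 in CA1, 2.83 in CA3 and 4.29 in DG. It was lower in CA1 than in DG by -1.44 ± 0.16 and in CA3 than in DG by -1.47 ± 0.16, in 17 of 17 mice each (limma, adjusted p = 1.91e-08 and 8.7e-09). Across the 51 arrays, with the group means removed, it correlated with the other 6 Mbp probe sets, 1454651_x_at included, at r between -0.161 and 0.229, while those correlated with each other at 0.53 to 0.988. The Mbp locus also gives Golli transcripts, which start upstream and are made in neurons as well. Which transcripts this probe set reads was not tested.

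Of the other oligodendrocyte genes, those that passed between layers did not all go with the 8. Of all probe sets 10.9% passed for CA1 minus DG, 13.9% for CA3 minus DG and 4.68% for CA1 minus CA3. Higher in CA1 than in DG were Omg (0.74, adjusted p = 0.00807), Degs1 (0.70, adjusted p = 1.4e-06), the septin Sept4 (1.05, adjusted p = 0.0216) and Qdpr, which recycles tetrahydrobiopterin (0.89, adjusted p = 0.00185). Higher in DG were Ptprz1, a phosphatase of precursors and astrocytes (CA1 minus DG -1.85, adjusted p = 4.93e-07, and CA3 minus DG -1.92, adjusted p = 1.53e-07), the ephrin Efnb3 (CA1 minus DG -0.98, adjusted p = 0.0179, and CA3 minus DG -2.46, adjusted p = 3.72e-08), Tcf7l2 (CA1 minus DG -1.10, adjusted p = 0.0239) and the tetraspanin Cd9 (CA3 minus DG -0.73, adjusted p = 0.0183). Gal3st1, which sulfates galactosylceramide, was higher in CA3 than in DG (0.35, adjusted p = 0.00721). Degs1 (0.45, adjusted p = 0.00183) and Efnb3 (1.48, adjusted p = 0.00065) were also higher in CA1 than in CA3. Astrocyte genes lay on the opposite side to the 8, with 2 of 16 higher in CA1 than in DG. By limma 7 of the 16 were called lower, against 1206 of all 22626 probe sets. Among the 7 was Gfap, the astrocyte filament protein (-1.98, adjusted p = 9.76e-06).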

How the data were processed

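RNA from laser-captured CA1, CA3 and DG cell layers of 17 mice was amplified (Ovation Pico WTA) and hybridised to Affymetrix HT-MG-430A arrays. The values deposited by the authors are log2 signals after RMA normalization, 1 per probe set and array; the methods call them anti-log, which the values are not. Of 22716 probe sets, 90 controls were left out, and the annotation gave 18003 of the rest 1 symbol, 287 several and 4336 none. Groups came from the sample titles. Genotypes were compared with limma 3.58.1 (R 4.3.3) in each subfield, 3 genotypes together, and on each mouse's mean of 3 arrays. For subfields the model had a term for each mouse, since the titles assign 3 arrays to each; the mean correlation within a mouse over all probe sets was 0.0454. Interactions were tested on differences within a mouse. p-values were adjusted by Benjamini-Hochberg over 22626 probe sets, with a threshold of 0.05. The methods' own test, Fisher's LSD after a 1-way ANOVA, was an alternative, as were array weights, an intensity trend, other normalizations, a filter on dim probe sets and leaving out mice. The calculation was tested on simulated data. Each mouse is 1 replicate, the number of mice limits the precision, and arrays carry no depth. No 2 arrays were identical (highest correlation 0.979). Named beside the 8 genes are, of each list, among the 4 brightest and any called, and the 10 genes most like their mean. The members and lists were chosen with earlier results of these data known. Plots used matplotlib 3.10.9 (Python 3.11.15).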

Additional observations from a re-analysis of the deposited data

Results flagged for a closer look

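Of 144 groups of 5 or 6 values of the 12 probe sets, 9 held a value far from the rest of its group by Dixon's test, and chance gives about 1 in 20. The low ones were Mbp (1451961_a_at) in CA3 of tTA mouse 3 at 4.78, the next tTA mouse being at 7.61, Mal (1417275_at) in CA3 of DN mouse 5 at 3.92 (next 6.17), Mal (1417275_at) in DG of rTg4510 mouse 5 at 2.22 (next 5.74) and Mal (1432558_a_at) in CA1 of tTA mouse 5 at 3.42 (next 5.04). The high ones were Mog (1448768_at) in DG of DN mouse 2 at 4.60 (next 1.88), and in the means over the 3 layers Cnp (1418980_a_at) of tTA mouse 5 at 5.17 (next 3.97) and 3 values of DN mouse 2: Mal (1432558_a_at) at 5.78 (next 4.65), Mobp (1421010_at) at 7.32 (next 5.53) and Mog (1448768_at) at 3.26 (next 2.25). DN mouse 2 accounts for 4 of the 9.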

How the results depend on the processing

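With each alternative normalization, filter, test and left-out mouse, 0 of the 12 probe sets were called in the 12 genotype comparisons, the F test of the mouse and, under the alternatives run for them, the 9 interactions. The median rTg4510 minus tTA difference over the 8 genes ranged over the left-out mice between 0.82 and 1.36 in CA1, 0.822 and 1.12 in CA3, 0.651 and 1.12 in DG and 0.74 and 1.12 in the mouse means. The median rTg4510 minus DN difference in DG ranged between 0.044 and 0.741, and the tTA minus DN median of the mouse means between -0.311 and 0.0113. The members called for CA3 minus DG, 1 with the mouse as a block, were 0 with no replicate block, with array weights, without the 5 arrays whose Prnp goes against the label and without the 3 mice, and 0 to 2 over the left-out mice. For CA1 minus DG the count, 0, was 1 without the 5 arrays and 0 to 2 over the left-out mice. The rTg4510 minus tTA difference changed sign for Mbp in CA3, which ranged between -0.175 and 0.814 over the left-out mice, and for Cnp in DG, between -0.146 and 0.445. The cause was not tested. Over all probe sets, leaving out the 5 arrays gave 16 calls for rTg4510 against DN in DG, against 0 with all arrays. For tTA against DN in DG it gave 13, against 0. In the mouse means, leaving out the 3 mice gave 7 calls for rTg4510 against DN, against 0. Over the 12 genotype comparisons the count of all probe sets called was 0 or 1, and 0 to 16 under the alternatives. For subfields it was 1059 for CA1 minus CA3, 1613 with array weights and 654 with 1 probe set per gene. With 1 probe set per gene it was 1337 for CA1 minus DG (2474 with all) and 1698 for CA3 minus DG (3137 with all). The F test of the mouse called 6, and 1 with the filter on dim probe sets, 0 with 1 probe set per gene and 3 without the 3 mice. With 5 or 6 mice a genotype and SEs of 0.3 to 0.7 for most members, differences of the size seen here, about 1 on the log2 scale, could not be separated from the spread between mice after adjustment over all probe sets.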
